A study of Mus musculus with 3 samples.

Results

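The histone cluster genes are the replication-dependent histone genes whose mouse symbols begin with Hist1h, Hist2h, Hist3h or Hist4. The gene list of the deposited matrix holds 69 such symbols, and the 34 with at least 50 unique molecular identifiers (UMIs, each standing for 1 captured RNA molecule) summed over all cells are described here. The members were thus chosen by summed UMIs, and the rule used no other value. The 34 comprise 5 linker histone H1 genes, 10 H2A, 7 H2B, 6 H3 and 6 H4 genes. Just inside the threshold lay Hist1h2ac with 59 UMIs, Hist1h2ai with 57 and Hist2h2ac with 55, and just outside it Hist2h2aa1 with 46 and Hist1h2bg with 43.

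Histones H2A, H2B, H3 and H4 form the protein core around which DNA is wound, and H1 binds the DNA between cores. Most histone protein is made during DNA replication from clustered, mostly intronless genes whose mRNAs end in a conserved stem-loop in place of a poly(A) tail, bound by the stem-loop binding protein SLBP. The chemistry used here primes on poly(A), so a captured histone transcript is one with a poly(A) tail or an internal run of A, and the UMI counts of these genes need not follow their total mRNA.

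The study took testes from mice of 3 genotypes and made 1 single-cell library of each. Per the labels and the series text, Cdk2-WT was wild type, Cdk2-HET carried 1 YS allele of Cdk2, a cyclin-dependent kinase gene, and Cdk2-Y15S carried the allele on both chromosomes. All were males at postnatal day 3, without treatment, with both B6(Cg)-Tyrc-2J/J and FVB/NJ in their descent, bred from heterozygous parents. The sources used here do not give the number of animals per library. With 1 library per genotype, genotype cannot be told apart from animal, litter or library preparation, so no genotype difference was tested. The libraries held 5061 cells for Cdk2-WT, 4958 for Cdk2-HET and 4403 for Cdk2-Y15S, with medians of 5570, 5908 and 5723 UMIs per cell, and where 3 values follow each other below they keep this order. Of 14422 barcodes, 174 carried a sequence found in more than 1 library.

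Histone transcripts were followed in 3 kinds of cell. Germ cells were those that the authors placed in clusters A to E, 69 of Cdk2-WT and 72 of Cdk2-Y15S; Cdk2-HET is not analysed in that table. Sertoli cells, the somatic cells of the testis cords, were called from at least 3 UMIs of Amh, Sox9, Cldn11 and Inha with at most 2 collagen and decorin UMIs. Mesenchymal cells were called from at least 5 UMIs of Col1a1, Col1a2, Col3a1 and Dcn. This gave 2379, 2111 and 1510 Sertoli cells and 2154, 2429 and 2415 mesenchymal cells. The classes were not exclusive: of the cells in the splits below, 1 Sertoli and 1 mesenchymal cell of Cdk2-WT and 10 mesenchymal cells of Cdk2-Y15S are also among the authors' germ cells. Both somatic classes carried their own independent markers. The Sertoli genes Wt1, Gata4, Dhh, Aard, Rhox8 and Ctsl summed to between 6711 and 8297 CPM (UMIs per 1e6 summed UMIs of a library's cells) in Sertoli cells and between 474 and 805 in mesenchymal cells. The mesenchymal genes Pdgfra, Tcf21, Nr2f2, Acta2, Myh11 and Dlk1 summed to between 43.4 and 82.2 in Sertoli cells and between 4207 and 5426 in mesenchymal cells.

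The histone stem-loop is shown first, because it decides how these mRNAs normally end. A 16-base stem-loop pattern (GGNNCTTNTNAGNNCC) was searched in the GENCODE M21 transcripts (GRCm38). It was found in 26 of the 33 members with a transcript, in 17 of 34 such genes under the threshold and in 0.621% of all 21901 protein-coding genes. The forms found in members differ in the loop, in capitals, and in the stem:
Hist1h2ap: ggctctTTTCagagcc
Hist4h4: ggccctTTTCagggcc
Hist1h3c: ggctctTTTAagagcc
Hist1h4i: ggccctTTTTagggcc
Hist2h2ac: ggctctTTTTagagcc
Hist1h4j: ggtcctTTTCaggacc
The first form stood in 16 members, among them Hist1h1c, Hist1h1e, Hist1h2ae and Hist3h2a. In Hist1h2ap it lies at chr13:21833029-21833044 on the minus strand, 3 bases before the end of the annotated exon. In Hist1h1c it lies at chr13:23739512-23739527 on the plus strand and the transcript runs on for 840 bases, and in Hist3h2a, at chr11:58955172-58955187 on the plus strand, for 1643 bases. Over 100 bases followed the stem-loop in 17 members and in 5 of the genes under the threshold. Hist1h2bc, an H2B gene with 2 exons at chr13:23684199-23692908 on the plus strand, had no such stem-loop in its annotated transcript, nor did the annotated transcripts of Hist1h1a, Hist1h1b, Hist1h2ai, Hist1h2ak, Hist1h2al and Hist2h2be. A poly(A) signal within the last 50 bases of the transcript was found in 12 of 33 members, in 5 of 34 genes under the threshold and in 50.2% of 58797 protein-coding transcripts.

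Histone genes of the H2A and H2B families often lie head to head with one start region between them, and 12 such pairs were found. In most the captured UMIs fell on one side. Hist1h2ac and Hist1h2bc, with 59 and 15448 UMIs, are 250 bases apart at chr13:23683949-23684198, and Hist1h2ap and Hist1h2br, with 7541 and 3, are 235 bases apart. The 250 bases upstream of the starts of Hist1h2ac, which hold nearly all of the gap it shares with Hist1h2bc, of Hist1h2ap and of the H1 genes Hist1h1b and Hist1h1c are given from RefSeq (GRCm38.p6) on each gene's own strand, because these 4 promoters serve the most captured H2A, H2B and H1 genes. Capitals mark matches, on either strand, to the 4 motifs that are spelled out after the sequences:
Hist1h2ac: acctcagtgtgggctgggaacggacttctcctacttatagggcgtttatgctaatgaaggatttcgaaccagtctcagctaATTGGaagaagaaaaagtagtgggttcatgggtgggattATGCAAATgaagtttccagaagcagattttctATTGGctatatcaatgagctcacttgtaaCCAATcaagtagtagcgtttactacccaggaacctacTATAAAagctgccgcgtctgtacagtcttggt
Hist1h2ap: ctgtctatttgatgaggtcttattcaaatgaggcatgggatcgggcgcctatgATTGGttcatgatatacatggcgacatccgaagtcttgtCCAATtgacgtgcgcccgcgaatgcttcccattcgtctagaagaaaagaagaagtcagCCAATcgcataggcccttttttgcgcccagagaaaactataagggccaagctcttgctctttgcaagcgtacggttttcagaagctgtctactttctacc
Hist1h1b: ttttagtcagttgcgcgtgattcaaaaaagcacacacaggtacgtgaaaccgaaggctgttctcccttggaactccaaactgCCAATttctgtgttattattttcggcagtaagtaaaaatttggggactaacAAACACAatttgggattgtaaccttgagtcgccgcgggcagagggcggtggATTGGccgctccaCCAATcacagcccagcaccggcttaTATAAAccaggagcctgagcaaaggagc
Hist1h1c: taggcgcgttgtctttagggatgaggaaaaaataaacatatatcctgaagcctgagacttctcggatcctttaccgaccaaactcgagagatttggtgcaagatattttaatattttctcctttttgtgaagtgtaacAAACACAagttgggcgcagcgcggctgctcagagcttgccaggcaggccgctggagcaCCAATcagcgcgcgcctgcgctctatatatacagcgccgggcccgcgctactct
They lie at chr13:23683960-23684209 (minus strand), chr13:21833476-21833725 (minus), chr13:21780626-21780875 (minus) and chr13:23738557-23738806 (plus). RefSeq promoters were matched for 29 members. CCAAT, the CCAAT box, was found on either strand in 79.3% of them and in 33.8% of all 32851 promoters of the same length, and a TATA box (TATAAA) in 44.8% against 12.4%. ATTTGCAT, the octamer of H2B promoters and of the gaps that H2A genes share with them, was found in 24.1% against 1.60%. AAACACA, the H1 box, was found in 20.7% against 6.25%, and in 4 of the 5 H1 genes. A match describes the letters and is not a binding site.

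The 34 genes held 47116 UMIs, and the 35 below the threshold 574. Capture was uneven: Hist1h2bc (15448 UMIs), Hist1h2ap (7541), Hist1h1c (5812) and Hist3h2a (3533) took 68.6% of the members' UMIs, and the 24 members with fewer than 400 UMIs each took 6.59%. The leading H4 gene was Hist1h4i with 2332 UMIs, and the leading H3 gene was Hist2h3c2 with 159. Reads from near-identical copies can be lost or moved between genes. Of all 90-base windows of Hist1h2ap, 92.4% occur in another gene too, as do 88.8% of Hist1h2ai and 26.1% of Hist1h2bc, whereas Hist1h1a, Hist1h1b, Hist2h2be and Hist2h4 share none. The values of the H2A genes are therefore uncertain as to the copy, and the small number of H3 UMIs may not be read as little H3 mRNA. Hist1h1e overlaps Hist1h2be on the same strand, Hist3h2a overlaps Trim17 on the same strand, and predicted genes lie antisense to Hist1h2ap and Hist1h2ak. Hist1h2al is annotated as a processed pseudogene.

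To follow the cell cycle, Sertoli and mesenchymal cells with at least 3 UMIs of the replication genes Rrm2, Tk1, Clspn and Tyms (S-positive) were set against cells with 0 (S-negative). The S-positive cells were 457, 412 and 272 Sertoli cells and 351, 333 and 228 mesenchymal cells. They were deeper, with medians of 7798, 7830.5 and 7895.5 UMIs against 5706.5, 5797 and 5686 in Sertoli cells. In mesenchymal cells the medians were 7314, 8021 and 7959.5 against 4607, 5059 and 5034. UMIs were summed per library, class and state, given as CPM and tested with edgeR's quasi-likelihood test with the library as a block and Benjamini-Hochberg adjustment over 12214 genes. With the library as a block, the p-values rest on how far the differences between states and classes vary over these 3 libraries, which differ in genotype. All 10 independent S-phase genes checked, among them Pcna and Cdc6, rose in the S-positive cells of both classes. Their median log2 difference was 1.43 in Sertoli and 2.47 in mesenchymal cells. Of 8 mitosis genes checked, 7 rose in Sertoli cells (median 1.58) and 8 in mesenchymal cells (median 3.19). The split thus separates cells by mitotic genes too, and not by S phase alone. Transcripts of other cell types differed as well. Fetal Leydig genes summed to 265, 271 and 142 CPM in S-negative and 17.5, 60.9 and 15.2 CPM in S-positive Sertoli cells. In mesenchymal cells they summed to 226, 371 and 196 against 57.0, 70.6 and 194 CPM. Globin genes summed to 326, 8.42 and 81.3 against 7.09, 142 and 4.64 CPM in Sertoli cells.

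Most members that could be tested rose, and a few fell. Of the 34, 21 passed the low-count filter, and a gene that passed only through its high group had to differ. In Sertoli cells 13 of the 21 rose, beside 8.11% of all genes tested, and 3 fell, beside 9.09%. In mesenchymal cells 15 rose, beside 19.4% of all genes, and 2 fell, beside 14.4%. The counts that fell are small and not far from those shares, so they are no result about the members as a set. The 13 were among the 15, and the pair that fell in both classes was Hist1h2bc and Hist3h2a. Over all 34 members without any filter, the 3 S-positive values lay above the 3 S-negative values for 17 in Sertoli cells and 22 in mesenchymal cells, and below them for 4 and 5. The summed members stood at 526, 610 and 667 CPM in S-negative and 718, 745 and 904 CPM in S-positive Sertoli cells, and at 227, 283 and 326 against 725, 727 and 833 CPM in mesenchymal cells. In both classes every S-positive library was above every S-negative one.

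The H1 genes divided. Hist1h1b (H1f5 in RefSeq), a main linker histone of dividing cells, stood at 25.7, 13.0 and 13.2 CPM in S-negative Sertoli cells and at 105, 73.8 and 66.2 CPM in S-positive ones. All S-positive values lay above all S-negative ones, and the log2 difference was 2.19 (SE 0.15, edgeR quasi-likelihood adjusted p = 8.24e-09). In mesenchymal cells it went from 3.74, 3.04 and 1.61 to 116, 119 and 70.8 CPM, a log2 difference of 5.17 (SE 0.19). Hist1h1e rose by 1.69 (SE 0.15) in Sertoli and 3.58 (SE 0.18) in mesenchymal cells. Hist1h1a, an H1 gene known from thymus and testis, rose by 2.24 (SE 0.33) and 4.87 (SE 0.40). Hist1h1c, a linker histone also made by cells outside S phase, did the reverse. It stood at 82.7, 90.3 and 89.9 CPM in S-negative and at 40.1, 48.5 and 36.3 CPM in S-positive Sertoli cells, and fell by 1.11 on the log2 scale (SE 0.14). Its mesenchymal values overlapped although each library fell, at 54.1, 52.2 and 67.4 against 48.9, 33.5 and 58.5 CPM. The log2 difference there was -0.36, with an edgeR adjusted p of 0.0647. Against S-negative Sertoli cells that also lacked mitotic UMIs, a comparison chosen after seeing the data, its difference was -0.40 with an adjusted p of 0.0523. Hist1h1d, with 17, 5 and 6 UMIs in S-negative and 17, 13 and 12 in S-positive Sertoli cells, passed the test there. Its mesenchymal call rested on 3, 7 and 4 UMIs against 0, 0 and 1, too few for a fold. The Hist1h1d call in Sertoli cells was lost under 5 of 14 alternative settings, with Cdk2-HET or Cdk2-Y15S left out among them (adjusted p = 0.198 and 0.133).

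Among the H2A genes, Hist1h2ap had the strongest S signal by test. It stood at 34.8, 34.7 and 55.2 CPM in S-negative and 173, 249 and 332 CPM in S-positive Sertoli cells, a log2 difference of 2.52 (SE 0.10, edgeR adjusted p = 7.46e-12). In mesenchymal cells it stood at 2.18, 3.86 and 3.87 against 198, 268 and 325 CPM, a log2 difference of 6.26 (SE 0.13, edgeR adjusted p = 6.38e-16). The groups were far apart in every library of both classes. Hist1h2ak rose by 2.52 (SE 0.18) in Sertoli and 5.99 (SE 0.25) in mesenchymal cells, from 11.6, 1.01 and 23.6 to 85.9, 4.02 and 122 CPM in the former and from 1.25, 0.234 and 1.72 to 102, 2.52 and 113 CPM in the latter. Its Cdk2-HET values were low in both states, so the Sertoli ranges overlapped although each library rose. The Sertoli call was lost when the library was not a block in the fit (adjusted p = 0.141). Hist1h2ae rose by 2.31 (SE 0.13) and 4.16 (SE 0.17). The low-count members Hist1h2ab and Hist1h2ai also rose, from 1 to 4 and 1 to 3 UMIs per library in S-negative Sertoli cells to 6 to 7 and 4 to 11 in S-positive ones.

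Hist3h2a, an H2A gene on chromosome 11 outside the main cluster, fell. It stood at 45.4, 44.8 and 40.2 CPM in S-negative and 34.1, 33.3 and 32.9 CPM in S-positive Sertoli cells, a log2 difference of -0.44 (SE 0.10, edgeR adjusted p = 0.00483). In mesenchymal cells it fell by 0.98 on the log2 scale (SE 0.11), from 47.1, 49.3 and 42.8 to 23.9, 26.3 and 22.2 CPM. No S-positive library reached an S-negative one in either class. The Sertoli call was lost in 4 of 14 alternatives. Among them were the fits without Cdk2-WT (edgeR adjusted p = 0.0761), without Cdk2-HET (0.156) and against S-negative cells without mitotic UMIs (0.154). Hist1h2al stood at 11.2, 9.94 and 23.4 against 22.6, 25.0 and 21.5 CPM in Sertoli cells, where it missed the threshold (edgeR adjusted p = 0.0601), and rose by 1.18 (SE 0.27) in mesenchymal cells, a call lost without Cdk2-WT (0.65, adjusted p = 0.0862).

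Hist1h2bc, the most captured member and the leading H2B gene, had the largest fall. It stood at 233, 341 and 356 CPM in S-negative and 42.8, 104 and 139 CPM in S-positive Sertoli cells, and fell by 1.87 on the log2 scale (SE 0.14, edgeR adjusted p = 1.49e-08). In mesenchymal cells it fell by 1.62 (SE 0.17), from 71.5, 123 and 155 to 17.3, 38.9 and 64.2 CPM. S-positive values were below S-negative values in every library. Hist1h2bj, a low-count H2B gene, rose by 1.84 (SE 0.39) in Sertoli cells. Its mesenchymal call rested on 2, 6 and 8 UMIs against 0, 1 and 2. Hist2h2be, an H2B gene on chromosome 3, stood at 3.14, 3.87 and 3.97 against 3.27, 4.31 and 4.22 CPM in Sertoli cells, a log2 difference of 0.05 that did not pass. Its mesenchymal values were 3.74, 4.33 and 7.43 against 3.47, 2.52 and 2.36 CPM, a log2 difference of -0.89 whose edgeR adjusted p of 0.0500007 missed the threshold of 0.05, although all S-positive values lay below all S-negative ones.

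The H4 gene Hist1h4i stood at 22.6, 29.1 and 20.7 CPM in S-negative and 39.3, 55.7 and 26.6 CPM in S-positive Sertoli cells, and rose by 0.70 (SE 0.14, edgeR adjusted p = 0.00178). The ranges overlapped, and the call was lost in 2 of 14 alternatives, among them without Cdk2-HET (0.61, edgeR adjusted p = 0.086). In mesenchymal cells it rose by 1.71 (SE 0.15), from 11.7, 14.3 and 13.0 to 38.9, 55.8 and 37.8 CPM. Hist1h4d, another H4 gene, had 3 UMIs in each library of S-negative Sertoli cells and 12, 13 and 12 in S-positive ones, and rose in both classes. Hist4h4, the H4 gene on chromosome 6, passed in neither class. Of the H3 genes only Hist1h3c passed the low-count filter. It had 0, 3 and 4 UMIs in S-negative and 5, 8 and 8 in S-positive Sertoli cells, and rose, a call lost in 4 of 11 alternatives. Hist2h3c2, the H3 gene with the most UMIs, was not tested and stood at 10, 9 and 13 UMIs in S-negative against 0, 5 and 3 in S-positive Sertoli cells.

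**Figure D1:**
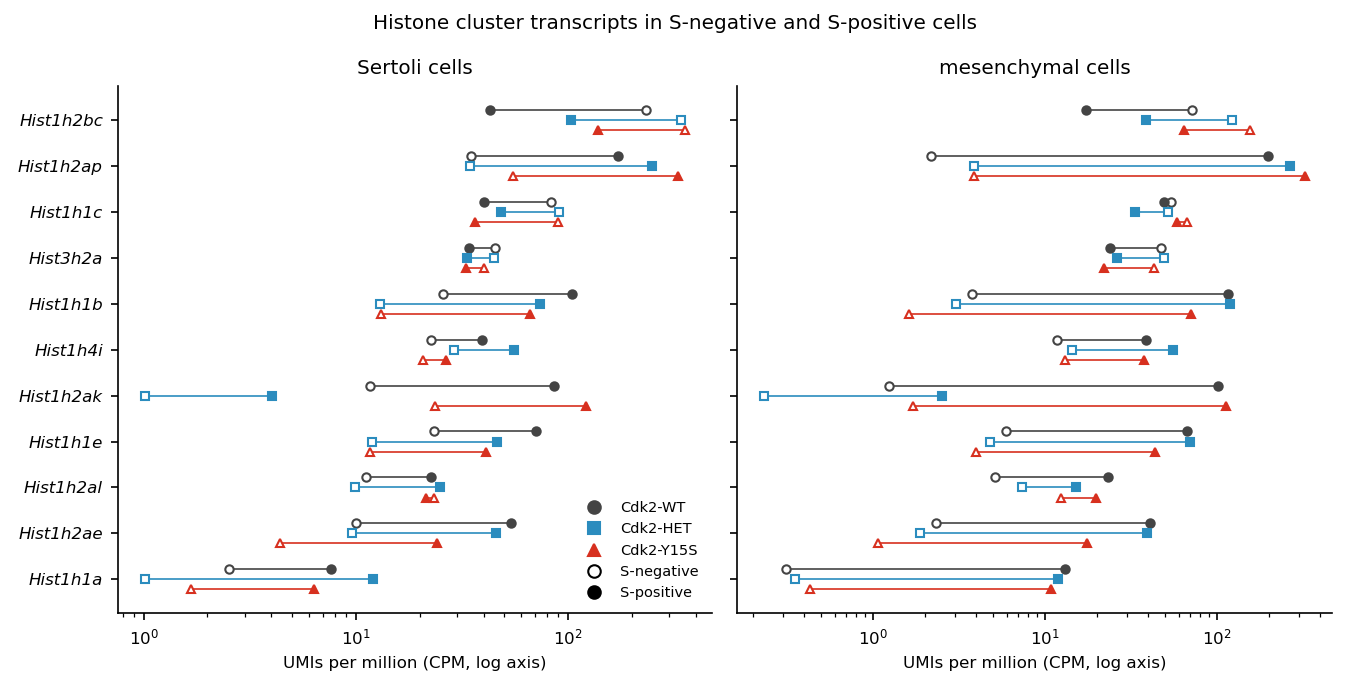
Levels of 11 members in S-negative (open) and S-positive (filled) cells of each library, in CPM on a log axis, for Sertoli cells (left) and mesenchymal cells (right). Hist1h2bc and Hist3h2a move left in all 3 libraries of both classes, while Hist1h2ap, Hist1h1b, Hist1h1e and Hist1h2ae move right, and Hist1h2ak of Cdk2-HET lies far below the other libraries.

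The members that rose in both classes had larger estimates in mesenchymal than in Sertoli cells. In the test of the difference itself (Sertoli minus mesenchymal), 8 of 21 tested members were lower, beside 5.97% of all genes, and 1 was higher, beside 0.598%. The 8 include Hist1h1c, which did not rise in either class (-1.11 and -0.36). The same held for other cell cycle genes: 7 of 10 S-phase genes (median -1.04) and 8 of 8 mitosis genes (median -1.87) were lower. The median of the tested members was -0.95, so the difference is not particular to histone genes. The difference was -3.75 (SE 0.18, edgeR adjusted p = 1.25e-09) for Hist1h2ap, -3.47 (SE 0.35) for Hist1h2ak and -2.98 (SE 0.27) for Hist1h1b. The S-positive level of Hist1h2ap was 173 to 332 CPM in Sertoli and 198 to 325 CPM in mesenchymal cells, and its S-negative level 34.7 to 55.2 CPM in Sertoli and 2.18 to 3.87 CPM in mesenchymal cells. S-negative Sertoli cells included 161, 159 and 109 cells with at least 3 UMIs of the mitotic genes Ccnb1, Plk1, Cdc20, Cenpf and Aurka, and S-negative mesenchymal cells 42, 57 and 42. With S-negative cells limited to those with 0 mitotic UMIs, a setting chosen after seeing the data, the Hist1h2ap difference was -2.63, and 5 of 17 tested members remained lower. With that limit the calls for Hist1h1c (adjusted p = 0.392), Hist1h4i (0.0735) and Hist1h1a (0.301) were lost. Over both states, Sertoli cells were above mesenchymal cells for 11 members, beside 39.4% of all genes, and below for Hist4h4 (-0.67, SE 0.24) and the H2B gene Hist3h2ba (-1.86, SE 0.37), beside 36.2%.

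**Figure D2:**
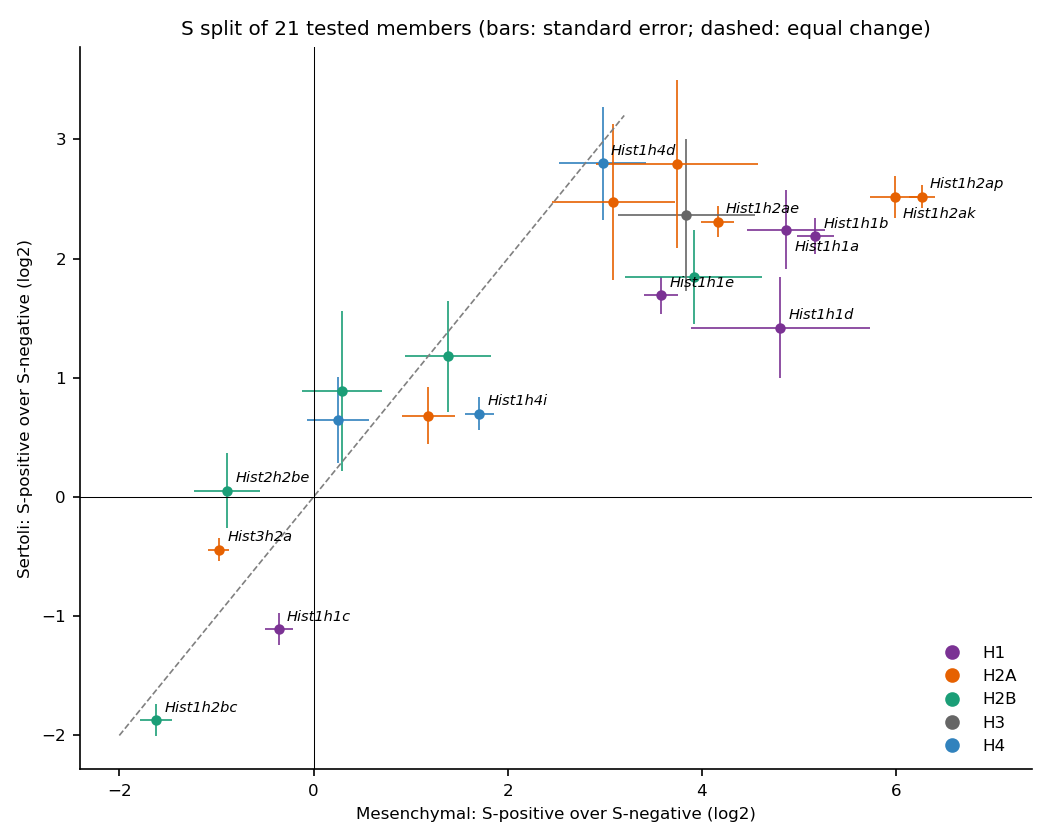
S-positive over S-negative log2 difference of the 21 tested members in mesenchymal cells (horizontal) and Sertoli cells (vertical), coloured by histone family, with standard errors as bars and equal change as a dashed line. Hist1h2ap, Hist1h2ak and Hist1h1b lie far below the line, and Hist1h2bc, Hist3h2a and Hist1h1c lie below 0 on both axes.

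Replication genes stay detected into mitosis, so S-positive cells were split by the 5 mitotic genes into cells with at least 3 UMIs and cells with 0. Of the members, 11 of 34 passed the low-count filter. In Sertoli cells 10 of 11 were higher in mitotic-positive cells, beside 2.52% of all 9897 genes, and in mesenchymal cells 10 of 11, beside 3.37%. Of these, 9 were shared. Of the 11 members, 0 were lower in either class, beside 1.92% and 4.21% of genes. The same was then done in S-negative cells, a comparison added after seeing the data, where 10 of 11 were higher in Sertoli cells, beside 6.91% of 11209 genes, and 8 of 11 in mesenchymal cells, beside 6.97%. Again 0 of 11 were lower, beside 6.41% and 12.1%. Cells with mitotic UMIs hold more UMIs, and with every cell thinned to 4000 UMIs the S-positive counts were 4 of 8 tested in Sertoli and 6 of 8 in mesenchymal cells. The thinned mitotic-positive groups held 19 to 53 cells per library. In these the Sertoli log2 difference was 1.12 for Hist1h2ap, 1.36 for Hist1h4i and 1.13 for Hist1h1e, which passed, and 1.26 for Hist1h2ae (edgeR adjusted p = 0.0646) and 0.48 for Hist1h1b (0.489), which did not.

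Of the 11 members followed over the 4 states that result, Hist1h2bc and Hist1h1c were the only ones highest with mitotic UMIs only in every library of both classes. Hist1h2bc stood at 191, 233 and 198 CPM in Sertoli cells with neither signal and at 21.7, 10.8 and 7.86 CPM in cells with replication UMIs only. It stood at 71.5, 187 and 230 CPM in cells with both, and at 266, 605 and 933 CPM in cells with mitotic UMIs only. Its level was therefore lowest with replication UMIs only and highest with mitotic UMIs only, in each library. Within S-positive Sertoli cells the mitotic difference was 3.23 (SE 0.31, edgeR adjusted p = 2.56e-07). In mesenchymal cells Hist1h2bc stood at 64.0, 112 and 122, then 13.2, 28.1 and 21.3, then 27.5, 51.9 and 94.1, then 113, 176 and 703 CPM in the same 4 states. The lowest and the highest state were the same as in Sertoli cells. The mesenchymal difference among S-positive cells was 1.32 (SE 0.35, edgeR adjusted p = 0.0226). This call was lost in 4 of 8 alternatives, among them without Cdk2-HET (edgeR adjusted p = 0.109) and without Cdk2-Y15S (0.0619). The difference among S-negative mesenchymal cells was 1.45 (SE 0.25) and was 0.51 (edgeR adjusted p = 0.0686) without Cdk2-Y15S. Hist1h1c had the same lowest and highest states in Sertoli cells, going from 57.9, 52.5 and 49.99 to 20.9, 13.0 and 9.43, then 60.7, 76.7 and 56.4, then 147, 189 and 257 CPM.

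Hist1h2ap, Hist1h1b, Hist1h1e, Hist1h2ae and Hist1h2ak were instead highest in cells with both signals, in all 3 libraries of both classes. In Sertoli cells Hist1h2ap stood at 11.5, 8.04 and 6.68 CPM with neither signal, 96.8, 94.2 and 154 with replication UMIs only, 242, 346 and 453 with both, and 132, 149 and 295 with mitotic UMIs only. In mesenchymal cells it stood at 0.858, 2.52 and 1.33, then 56.3, 81.6 and 88.1, then 329, 343 and 432, then 21.8, 33.5 and 70.6 CPM. The last value, with mitotic UMIs only, was a much smaller share of the peak in mesenchymal than in Sertoli cells, and this contrast was not tested. Hist1h1b in Sertoli cells stood at 13.0, 8.75 and 7.27, then 61.9, 36.8 and 51.9, then 146, 97.8 and 74.0, then 84.3, 32.9 and 43.1 CPM. Hist3h2a stood at 39.5, 39.5 and 33.4, then 24.8, 20.6 and 20.4, then 51.3, 50.4 and 42.3, then 66.7, 66.7 and 73.1 CPM in Sertoli cells. There its lowest and highest states were those of Hist1h2bc and Hist1h1c, over a narrower range. In mesenchymal cells Hist3h2a was highest in cells with neither signal in Cdk2-WT (46.9 CPM) and Cdk2-HET (49.8 CPM) and in cells with mitotic UMIs only in Cdk2-Y15S (42.4 CPM).

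**Figure D3:**
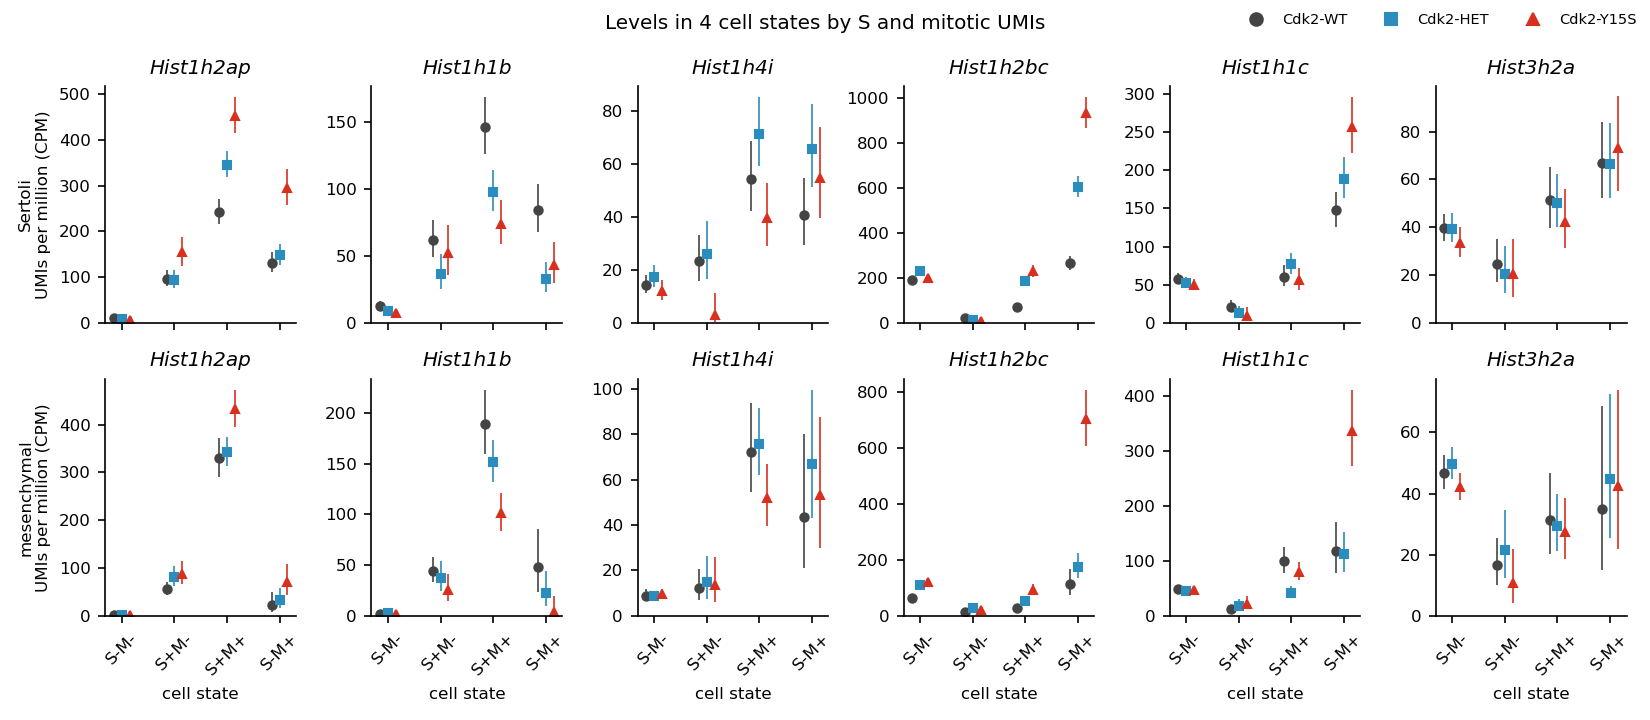
Levels of 6 members in CPM (vertical) in cells with neither signal (S-M-), replication UMIs only (S+M-), both (S+M+) and mitotic UMIs only (S-M+), in Sertoli (top) and mesenchymal cells (bottom). Points are libraries and bars are exact Poisson intervals, which cover counting error only. Hist1h2ap and Hist1h1b peak at S+M+, and Hist1h2bc and Hist1h1c at S-M+.

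The levels also followed the number of replication UMIs. In Sertoli cells Hist1h2bc went from 233, 341 and 356 CPM in cells with 0 to 29.4, 18.2 and 28.4 CPM in cells with 11 or more. Hist1h2ap went from 34.8, 34.7 and 55.2 to 268, 327 and 688 CPM in Sertoli cells and from 2.18, 3.86 and 3.87 to 298, 413 and 573 CPM in mesenchymal cells. The 2 genes thus moved in opposite directions over the same cells.

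**Figure D4:**
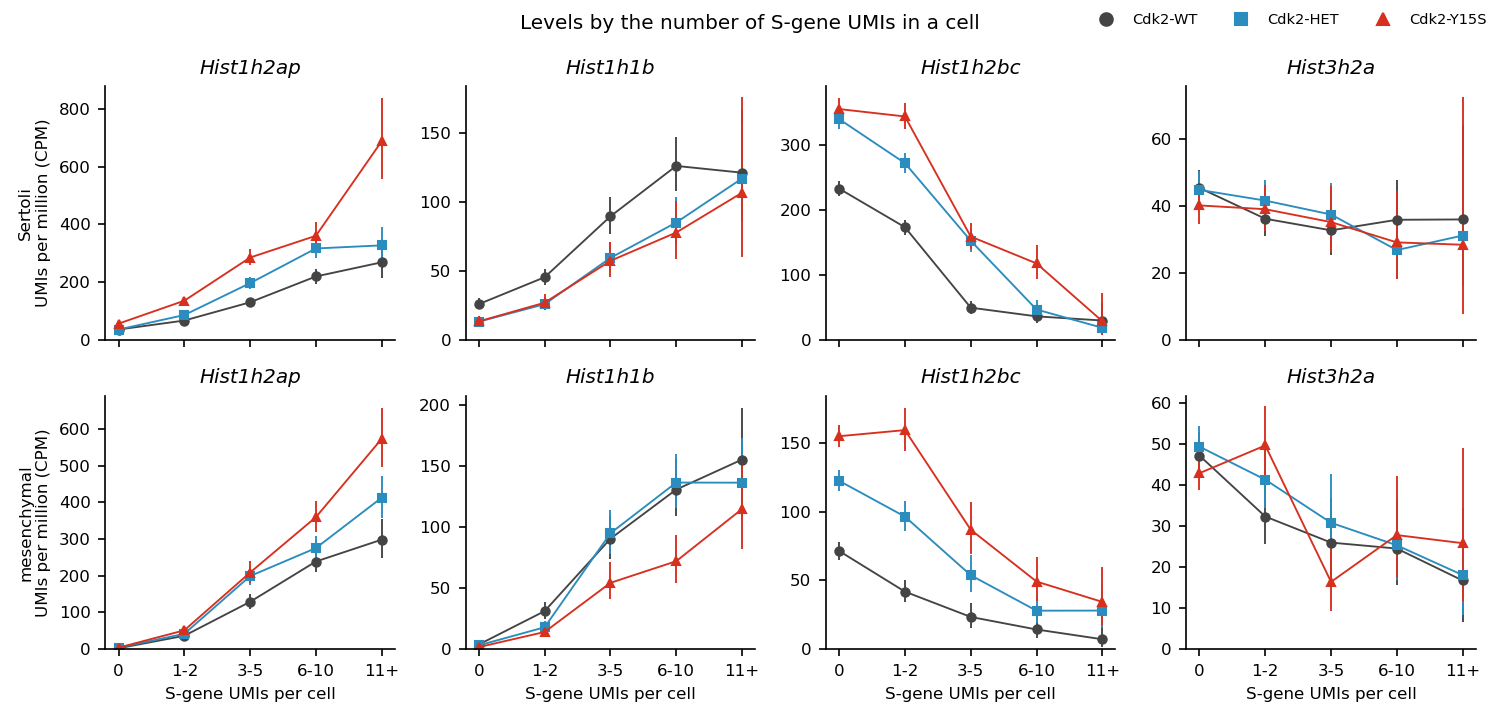
Levels of 4 members in CPM (vertical) by the number of replication-gene UMIs in a cell (horizontal) in Sertoli (top) and mesenchymal cells (bottom), with exact Poisson intervals. Hist1h2ap and Hist1h1b climb from the bin with 0 UMIs to that with 11 or more, and Hist1h2bc drops.

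The S difference was read against the annotated ends. Among tested members with a poly(A) signal in the last 50 bases of the transcript, 2 of 8 rose and 2 fell in Sertoli cells, with a median log2 difference of 0.67. Among those without one, 11 of 13 rose and 1 fell, with a median of 2.24. The 11 include the low-count Hist1h2bj, Hist1h4d, Hist1h1d, Hist1h2ab, Hist1h3c and Hist1h2ai, with at most 2.54 CPM in S-negative Sertoli cells. These may have passed the low-count filter through the S-positive cells, so the counts by annotated end are a description only. In mesenchymal cells the counts were 3 rising and 1 falling of 8 (median 0.27) and 12 rising and 1 falling of 13 (median 3.84). Over all genes tested, 8.11% rose and 9.09% fell in Sertoli cells and 19.4% rose and 14.4% fell in mesenchymal cells. The median over all genes tested was -0.05 in Sertoli and 0.00316 in mesenchymal cells. Hist1h2bc, which fell, is among those without a signal there.

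Genes that act on histone mRNA and protein were read in the same S split, in which 8.11% and 19.4% of all genes rose and 9.09% and 14.4% fell in Sertoli and mesenchymal cells. Of 17 tested genes of histone mRNA transcription, processing and decay, 7 rose in S-positive Sertoli cells and 9 in mesenchymal cells, 0 fell, and the others did not pass. Slbp, which binds the stem-loop, rose by 0.96 and 1.97, Eri1, an exonuclease acting on the stem-loop end, by 1.00 and 1.84, and the transcription factor gene E2f1 by 2.34 and 1.72. Of 22 histone chaperone genes, 14 rose and 2 fell in Sertoli cells and 16 rose and 2 fell in mesenchymal cells. The largest rises were those of Asf1b (2.17 and 4.98), which carries H3 with H4, and Chaf1b (2.16 and 3.98), a subunit of chromatin assembly factor 1, and those that fell were Cabin1 (-0.44 and -0.43) and Tonsl (-0.35 and -0.28). Of 11 genes of variant histones made outside the clusters, 6 rose and 1 fell in Sertoli cells and 9 rose in mesenchymal cells. H2afx rose by 1.15 and 2.41 and H2afz by 0.91 and 2.06, while the linker gene H1f0 fell by 0.34 in Sertoli cells and rose by 0.35 in mesenchymal cells. The list medians were 0.18, 0.49 and 0.43 in Sertoli cells and 0.68, 0.70 and 0.66 in mesenchymal cells.

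Within S-positive cells, most of the S-phase genes checked were lower in mitotic-positive cells. Of 10 such genes, 8 fell in Sertoli and 9 in mesenchymal cells, beside 1.92% and 4.21% of all genes. Of 22 chaperone genes, 6 fell and 1 rose in Sertoli cells and 5 fell and 1 rose in mesenchymal cells, and the others did not pass. E2f1 fell by 1.62 and 1.87 on the log2 scale and Mcm2, a helicase subunit that also binds H3 with H4, by 1.63 and 1.30. Cenpa, the centromeric H3 variant, rose by 4.37 and 5.09 and its chaperone Hjurp by 1.44 and 0.93. The cluster histone genes that rose there, given above, thus did so in cells in which most of the S-phase genes were lower.

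In the germ cells, the summed members stood at 196 CPM (95% exact Poisson interval 172 to 223) in the wild type library and 414 CPM (381 to 449) in that of Cdk2-Y15S. Of the 34 members, 4 had at least 50 UMIs in these cells, of which 3 were at least 2-fold higher in Cdk2-Y15S, beside 2.78% of 6796 genes, and 0 lower, beside 5.31%. That filter is on both libraries together, and Hist1h1a, with 13 and 42 UMIs, passed it through the library where it was high, so the count is a description only. Hist1h2ap stood at 53.6 and 170 CPM, a log2 ratio of 1.66 (interval 1.26 to 2.08). Hist1h1a stood at 10.7 and 29.97 CPM (1.45, interval 0.56 to 2.51) and Hist1h2ak at 25.6 and 57.8 CPM (1.16, interval 0.56 to 1.82). The lowest ratios among members with at least 30 UMIs here were those of Hist1h2bc, at 17.3 and 17.8 CPM, Hist1h1c, at 14.8 and 17.8 CPM, and Hist1h4i, at 19.0 and 29.97 CPM, whose interval of -0.11 to 1.46 includes equality. S-positive cells made up 56.5% of wild type germ cells and 73.6% of those of Cdk2-Y15S. Clusters differ in genotype as well: the summed members stood at 133 CPM in cluster A (Cdk2-WT only), 253 and 378 in B, 284 and 298 in C, 444 in D and 412 in E (both Cdk2-Y15S only). Only 24 of the 69 and 35 of the 72 germ cells had at most 10% mitochondrial UMIs. In those the log2 ratio was 1.70 for Hist1h2ap, 2.34 for Hist1h2ak (5 and 48 UMIs), 2.55 for Hist1h1a (2 and 25), 1.96 for Hist1h4i (4 and 30) and -2.39 for Hist1h2bc (10 and 3). The ratio of Hist1h2bc thus turned from 0.04 to a lower value in Cdk2-Y15S. Over clusters B and C alone, each given the same weight, the Hist1h2ap ratio was 0.61. Germ cells called by markers in all libraries gave summed members of 192, 231 and 398 CPM.

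In the somatic classes the genotypes are described by 1 library each, and comparisons that use Cdk2-WT share it. Hist1h2ak was nearly missing from Cdk2-HET. It stood at 36.0, 1.55 and 56.8 CPM in Sertoli and 26.8, 0.695 and 21.5 CPM in mesenchymal cells, a Cdk2-HET over Cdk2-WT log2 ratio of -4.50 (interval -5.22 to -3.92) and -5.20 (-6.35 to -4.37). Over all cells Cdk2-HET had 35 UMIs of it, against 962 (Cdk2-WT) and 1074 (Cdk2-Y15S), and it was detected in 0.706% of cells against 11.1% and 11.4%. Marker-called germ cells showed the same order, with 24.4 and 53.5 CPM in Cdk2-WT and Cdk2-Y15S and 0 UMIs in Cdk2-HET, which allows up to 3.40 CPM. Of the members with at least 50 UMIs in the class, Hist1h2ak was the only one at least 2-fold lower in Cdk2-HET, of 17 in Sertoli cells (beside 0.66% of all genes) and of 14 in mesenchymal cells (beside 0.423%). Those at least 2-fold higher in Cdk2-HET were Hist1h2bj (1.24 and 2.96 CPM) in Sertoli cells, which passed the UMI filter with 19 and 42 UMIs, beside 0.785%, and 0 of 14 in mesenchymal cells, beside 0.63%. Of the 90-base windows of Hist1h2ak, 16.4% occur in another gene too. Hist1h2ap stood at 77.9, 104 and 143 CPM in Sertoli cells.

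Hist1h2bc stood at 168, 260 and 303 CPM in Sertoli cells and at 52.8, 101 and 142 CPM in mesenchymal cells. Cdk2-WT was lowest in both classes, and the Cdk2-Y15S over Cdk2-WT log2 ratio was 0.85 (interval 0.77 to 0.93) and 1.43 (1.30 to 1.56). Of the members that rose in S-positive cells, Hist1h1b, Hist1h1e and Hist1h2ae had the other order in both classes, while Hist1h2ap in Sertoli cells, given above, was highest in Cdk2-Y15S. Hist1h1b stood at 51.0, 32.2 and 29.5 CPM in Sertoli and 35.0, 28.5 and 14.4 CPM in mesenchymal cells, Hist1h1e at 38.3, 26.4 and 19.4 and at 23.4, 19.7 and 10.8, and Hist1h2ae at 22.6, 19.4 and 11.2 and at 11.9, 10.1 and 4.10. In mesenchymal cells these 3 were the members at least 2-fold lower in Cdk2-Y15S than in Cdk2-WT, of 14 counted and beside 0.531% of all genes, and Hist1h2bc was the only one as much higher, beside 2.35%. In Sertoli cells Hist1h2ae was the only one of 14 that was at least 2-fold lower, beside 1.26%, and 0 were as much higher, beside 2.03%. Of the members counted for Cdk2-Y15S over Cdk2-HET, 16 in Sertoli and 14 in mesenchymal cells, only Hist1h2ak was at least 2-fold higher (beside 0.787% and 1.24% of all genes). At least 2-fold lower were 0 of 16 in Sertoli cells (beside 0.751%) and only Hist1h2ae of 14 in mesenchymal cells (beside 0.388%). S-positive cells made up 16.3%, 13.7% and 9.44% of mesenchymal cells and 19.2%, 19.5% and 18.0% of Sertoli cells. Within S-positive mesenchymal cells the Cdk2-Y15S over Cdk2-WT ratio was -0.71 for Hist1h1b and -0.62 for Hist1h1e, and 1.88 for Hist1h2bc. Hist1h2ae stood there at 40.8 CPM in Cdk2-WT and 17.5 CPM in Cdk2-Y15S, and so stayed at least 2-fold lower. Germ markers were higher in the S-positive mesenchymal cells of Cdk2-Y15S, where Ddx4, Dazl, Mael and Dppa5a summed to 186 CPM against 16.2 and 18.4 CPM in Cdk2-WT and Cdk2-HET. Of these 228 cells, 12 were marked as germ cells, by at least 2 of Ddx4, Dazl and Mael or by the authors' clusters. Of these 12, 10 are among the authors' germ cells, so they were counted in both the germ and the mesenchymal class. With such cells left out, 15 members rose and 3 fell in the mesenchymal S split.

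**Figure D5:**
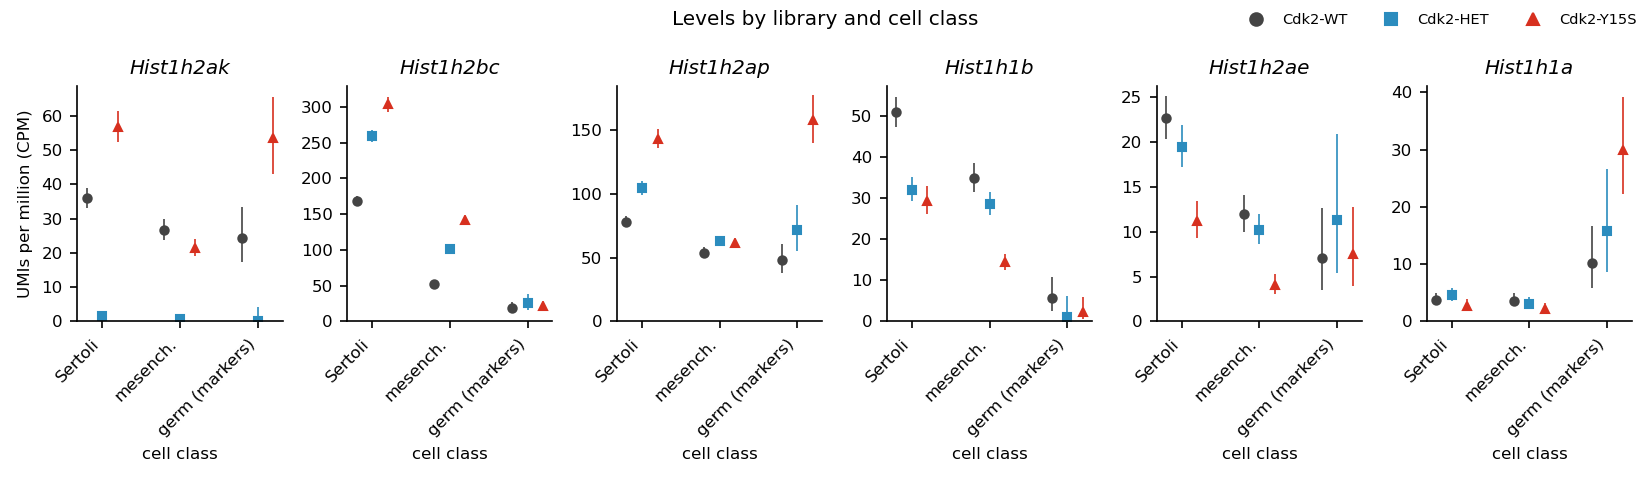
Levels of 6 members in CPM (vertical) in Sertoli cells, mesenchymal cells and germ cells called by markers, by library, with exact Poisson intervals. Hist1h2ak is near 0 in every class of Cdk2-HET, and Hist1h2bc is lowest in Cdk2-WT in both somatic classes. Among the germ cells of the 3 libraries, Hist1h2ap, Hist1h2ak and Hist1h1a are highest in those of Cdk2-Y15S.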

How the data were processed

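Single cells of 3 mouse testis libraries were measured with 10x Genomics 3′ v2 chemistry, per the labels' protocols. The deposited matrix and germ cell table hold raw UMI counts per gene and cell, and the authors' cluster table assigns germ cells to clusters. The submitters' processing notes name Cell Ranger 2.1.0 and Seurat, with mm10 as the build; gene annotation, strand setting and cell filters were not given in the sources used. The members and gene lists were chosen with earlier results of these data known.

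Somatic cells needed 500 genes or more and no more than 10% mitochondrial UMIs, and Scrublet in Scanpy 1.11.5, set to 6% expected doublets, removed 85, 82 and 55. This kept 4755, 4752 and 4182 cells. All germ cells of that table were used. Counts were summed per library and cell state and tested in edgeR 4.0.16 (R 4.3.3; TMM, filterByExpr, glmQLFTest, library as a block) at an adjusted p of 0.05. The standard errors (SE) of these tests were back-calculated, as the absolute log2 difference over the square root of the quasi-likelihood F statistic. On simulated counts of 11872 genes for the S split in Sertoli cells, 186 of 200 changed genes were recovered, with 9 false calls. The simulation used 1 fixed dispersion and the same mean share in every class and library. Changes were put only into genes with over 200 UMIs, so the recovery does not cover the low-count members. Genotype ratios had 0.5 UMI added and exact binomial intervals at the 95% level, which cover counting error only; a count of 0 was bounded by 3 UMIs. DESeq2 1.42.0, other scalings, filters and cell definitions were alternatives. Sums, intervals and thinning used Python 3.11.15, NumPy 2.4.6, SciPy 1.17.1 and pandas 2.3.3. Stem-loops were searched in GENCODE M21 transcripts and promoters taken from RefSeq.

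Described with values in each library were the 8 members with the most UMIs, the largest changes of the S split (5 each way per class), the leading gene of each family and the 3 highest and lowest genotype ratios per comparison; some of the last are given by count only. From the lists, the 2 largest changes each way were named, and the few others named were chosen after their values were seen.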

Additional observations from a re-analysis of the deposited data

Results flagged for a closer look

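The rise or fall of 9 members between S-negative and S-positive cells differed between Sertoli and mesenchymal cells in the test of the difference itself (Sertoli minus mesenchymal, log2, edgeR quasi-likelihood test with Benjamini-Hochberg adjustment). Among the H1 genes the difference was -2.98 for Hist1h1b, -2.63 for Hist1h1a, -1.89 for Hist1h1e and -0.75 for Hist1h1c. Among the H2A genes it was -3.75 for Hist1h2ap, -3.47 for Hist1h2ak, -1.85 for Hist1h2ae and 0.53 for Hist3h2a, and for the H4 gene Hist1h4i it was -1.01. Each direction was the same in all 14 alternatives run. The calls for Hist1h2ap, Hist1h1b and Hist1h1e held in all 14, while those for Hist1h1c and Hist3h2a were lost in 8 and that for Hist1h4i in 4. That for Hist1h1a was lost in 3, that for Hist1h2ae in 2 and that for Hist1h2ak in 1. S-negative Sertoli cells held more cells with mitotic UMIs than S-negative mesenchymal cells did (161, 159 and 109 against 42, 57 and 42 by library). With such cells left out, the difference was -2.63 for Hist1h2ap, -2.71 for Hist1h1b and -2.81 for Hist1h2ak. Over all S-negative cells, the difference was also lower for 7 of 10 S-phase genes and 8 of 8 mitosis genes, beside 5.97% of all genes.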

How the results depend on the processing

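Single members were followed only where the main fit had called them, and only in alternatives that gave them an adjusted p. Of these values, 968 stayed past the threshold, 104 lost it and none changed direction. Alternatives in which a called member could not be tested are not in this tally: Hist1h2ai in Sertoli cells had 7 and Hist1h2ap 14. Of the counts of members, 200 stayed within 1.5 times and 42 moved. In the S split, Sertoli cells gave 8 to 11 members higher with 1 library left out and 1 lower with mitotic-free S-negative cells. Mesenchymal cells gave 8 higher in cells thinned to 4000 UMIs, and 5 lower without a gene filter, 4 with RLE scaling, 4 with every barcode and 2 to 4 with 1 library left out. For the difference between classes, 0 members were higher with DESeq2, without the library term, with the S split at 5 UMIs, with stricter mesenchymal cells, in thinned cells and with 1 library left out (0 to 0). Those lower were 4 without the library term, 5 with mitotic-free S-negative cells and 5 to 6 with 1 library left out. Sertoli against mesenchymal cells gave 1 lower at 5 UMIs and in thinned cells and 1 to 2 with 1 library left out. The mitotic split of S-positive cells gave 4 (Sertoli) and 6 (mesenchymal) higher in thinned cells. The cause was not tested.

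Counts of members past 2-fold between genotypes moved as follows. In germ cells, 0 were higher in S-negative cells, 1 in S-positive cells and 0 when B and C had equal weights. In Sertoli cells, Cdk2-HET over Cdk2-WT gave 0 higher in S-negative cells; Cdk2-Y15S over Cdk2-WT gave 2 lower when centred on all genes, 2 higher in S-negative and 1 higher in S-positive cells; Cdk2-Y15S over Cdk2-HET gave 2 higher and 1 lower in S-negative and 1 lower in S-positive cells. In mesenchymal cells, Cdk2-HET over Cdk2-WT gave 1 higher and 0 lower in S-negative and 1 higher in S-positive cells; Cdk2-Y15S over Cdk2-WT gave 2 higher and 0 lower in S-negative and 1 lower in S-positive cells; Cdk2-Y15S over Cdk2-HET gave 0 higher and 0 lower in S-negative cells. The log2 ratio changed sign in S-negative cells for Hist1h2ap (Sertoli, Cdk2-HET over Cdk2-WT, -0.0037), Hist1h2ak (mesenchymal, Cdk2-Y15S over Cdk2-WT, 0.42) and Hist1h1a (Sertoli, Cdk2-Y15S over Cdk2-HET, 0.70). It changed sign in S-positive cells, an alternative added after seeing the data, for Hist1h1c (Sertoli, Cdk2-Y15S over Cdk2-WT, -0.14), Hist1h1b and Hist1h1e (mesenchymal, Cdk2-HET over Cdk2-WT, 0.034 and 0.058), Hist1h2ak and Hist2h2be (mesenchymal, Cdk2-Y15S over Cdk2-WT, 0.15 and -0.50), Hist1h2al (Sertoli, Cdk2-Y15S over Cdk2-HET, -0.21) and Hist2h2be (mesenchymal, Cdk2-Y15S over Cdk2-HET, -0.057). Fewer cells enter each of these, and only members with at least 50 UMIs in the cells compared were counted. A count of 0 in S-negative cells can therefore come from that filter and does not show that a difference was absent. Hist1h2ak stood at 0.234 to 1.72 CPM in S-negative mesenchymal cells, and the S-negative germ cells were 12 of Cdk2-WT and 3 of Cdk2-Y15S.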
